A study of Homo sapiens with 11 samples.

Results

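H3K9me3 intervals of MDA-MB-231 cells without and with the mdig protein are described here by their width, by how closely they lie together and by whether they stand alone. MDA-MB-231 is a human triple-negative breast cancer line. All enriched intervals listed for the H3K9me3 antibody on chromosomes 1 to 22 were taken, 48317 from the cells without mdig (KO) and 45262 from the cells with normal mdig (WT). Together these were 93579 of the 220433 autosomal intervals in the 10 ChIP lists of the series. A further 5084 KO and 563 WT intervals outside chromosomes 1 to 22 were left out. Nearly all of them, 5058 in KO and 543 in WT, lay on chromosome X.

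H3K9me3 is the defining mark of constitutive heterochromatin. It is written by SETDB1 and by the SUV39H enzymes and is bound by HP1 proteins, which help the mark to spread to neighbouring nucleosomes, so that it can form long silent domains as well as short isolated sites. KRAB zinc finger proteins with their partner TRIM28 bring SETDB1 to single sites, often at repeats, and the zinc finger gene clusters themselves carry broad H3K9me3. H4K20me3 is placed on chromatin that HP1 has bound and so often accompanies H3K9me3. Mdig, also called MINA53 or RIOX2, is an oxygenase with a JmjC domain and has been reported to lower H3K9me3.

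The compared groups were KO cells and WT cells, and both came from CRISPR-Cas9 work per the labels' protocols. Both were grown in DMEM/F-12 with serum, penicillin-streptomycin and blasticidin. The KO cells expressed no mdig protein and the WT cells expressed it at a normal level, per the same protocols. Whether a group was 1 clone or a pool is not given in the sources used here. Each genotype had 1 H3K9me3 library made with the same antibody, and the other 4 antibodies (H4K20me3, H3K36me3, H3K4me3 and MINA) likewise had 1 library per genotype. The list of the MINA antibody, which binds mdig itself, held 7693 autosomal intervals in KO and 16125 in WT. There were no replicates, no test was run, and a difference between the genotypes cannot be told apart from a difference between 2 libraries. The files list positions only, with no height or read count, so the depth is unknown. Shares of intervals are given with 95% Wilson confidence intervals, which cover counting error only and treat neighbouring intervals as independent.

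The KO list held slightly more intervals than the WT list and covered somewhat more of the autosomes. The covered length was 287.2 Mb in KO and 253.1 Mb in WT, a KO over WT ratio of 1.13, and the number ratio was 1.07. The number ratio turned to 0.972 when intervals under 2 kb were left out. The median interval was narrower in KO (3.4 kb, quartiles 2.2 and 6.2 kb) than in WT (4.0 kb, quartiles 2.6 and 6.4 kb), while the mean was wider, at 5.94 kb in KO and 5.59 kb in WT. The widest single interval spanned 292.8 kb in KO and 226.6 kb in WT.

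By width class, KO held more of the narrowest and more of the widest intervals and fewer in the middle. Intervals under 1 kb numbered 1621 in KO and 555 in WT, a ratio of 2.92. Those of 1 to 2 kb numbered 8150 in KO and 5061 in WT. The middle classes were slightly less populated in KO, with 22141 intervals of 2 to 5 kb against 22608 in WT, and 10454 of 5 to 10 kb against 12305 in WT. Above that the order turned again. Intervals of 10 to 20 kb numbered 3961 in KO and 3540 in WT, those of 20 to 50 kb 1597 in KO and 1030 in WT, and those of at least 50 kb 393 in KO and 163 in WT.

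Wide intervals carried much of the length, and KO had the larger share of it in them. Intervals of at least 20 kb covered 79.6 Mb in KO and 41.5 Mb in WT, which was 27.7% of the KO length and 16.4% of the WT length. The difference of 11.3 percentage points was 6.91 points for intervals of at least 50 kb, which covered 33.5 Mb in KO and 12.04 Mb in WT. The classes under 2 kb held many intervals but little length, with 1.08 Mb in KO and 0.388 Mb in WT under 1 kb, and 11.8 Mb in KO and 7.55 Mb in WT from 1 to 2 kb. Between 2 and 10 kb KO covered less than WT in both classes, 70.2 against 74.3 Mb from 2 to 5 kb and 71.0 against 82.9 Mb from 5 to 10 kb.

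**Figure D1:**
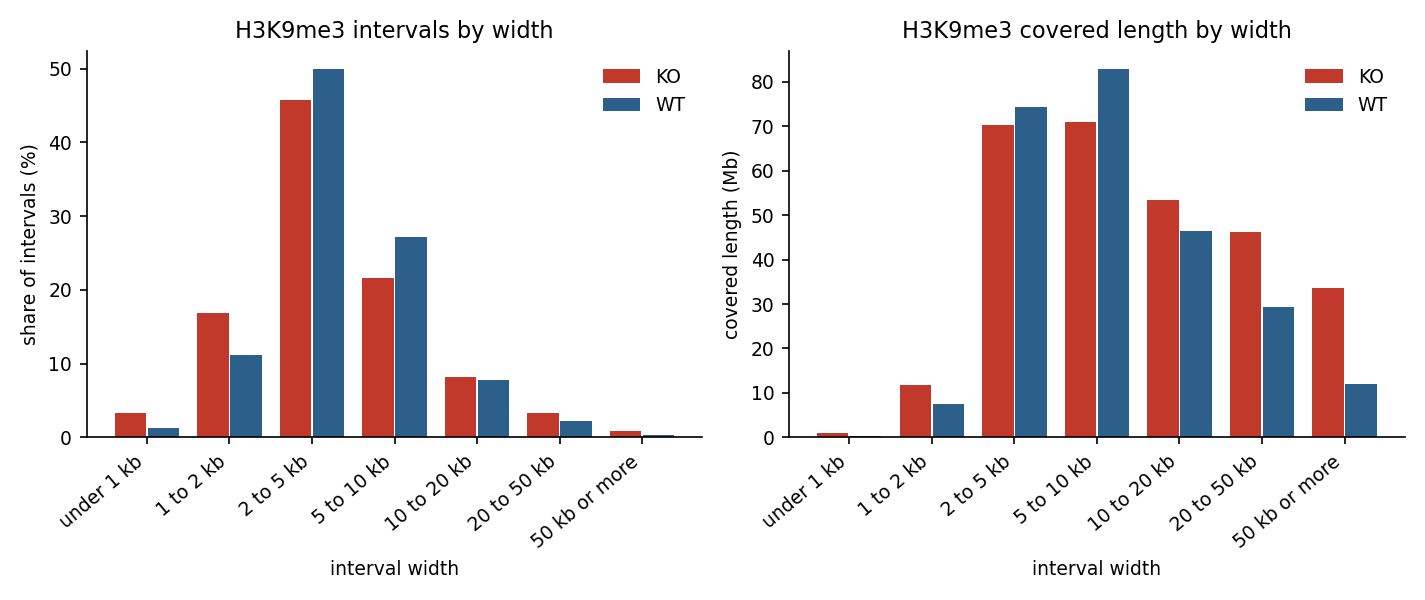
Share of H3K9me3 intervals (left, %) and covered length (right, Mb) by interval width on chromosomes 1 to 22, with 1 KO and 1 WT library. KO bars stand above WT bars under 2 kb and from 10 kb upwards, and below them from 2 to 10 kb.

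Intervals that met exactly 1 partner in the other list, and were its only partner, numbered 20092 pairs. Their median KO over WT width ratio was 0.952 (quartiles 0.643 and 1.39). KO was the wider one in 42.8% and the narrower one in 51.9% of pairs. Sorted by the geometric mean of both widths, pairs of 1 to 2 kb had a median ratio of 0.875 and pairs of 2 to 5 kb 0.923, while pairs of 5 to 10 kb and of 10 to 20 kb had a ratio of 1.00. Among the 189 pairs of 20 to 50 kb the median was 1.01, and KO was wider in 107 and narrower in 70 of them. The median ratio over all pairs thus lay close to 1, and wider and narrower pairs balanced in the classes from 5 to 20 kb. Single pairs there did differ in width, with quartiles of 0.711 and 1.58 from 5 to 10 kb and of 0.757 and 1.38 from 10 to 20 kb.

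Bridging of several intervals by 1 was more frequent from KO over WT than the other way. In KO 3544 intervals (7.33%, 95% interval 7.11% to 7.57%) each overlapped at least 2 WT intervals, with 9609 overlaps in all. A partner met by more than 1 interval is counted each time. In WT 2492 intervals (5.51%, 5.30% to 5.72%) each overlapped at least 2 KO intervals, with 5317 overlaps in all. The asymmetry was larger for 3 or more partners, with 1127 KO intervals of 32 kb median width and 252 WT intervals of 21.1 kb. At least 10 partners were met by 36 KO intervals, with a median width of 137.8 kb, and by 0 WT intervals.

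The KO intervals over the most WT intervals all lay in 1 part of chromosome 7 (hg19). The first, from 68605201 to 68840200, spanned 235.0 kb in KO and met 26 separate WT intervals that filled 70.6% of it. The next 2, from 67315601 to 67585600 and from 70014201 to 70277800, each met 25 WT intervals, which filled 53.7% and 58.3% of them. In the other direction the WT interval over the most KO intervals lay on chromosome 11 from 134593601 to 134738400 and met 8 KO intervals that filled 93.0% of it. It was followed by 1 on chromosome 9 from 138011201 to 138123200 and 1 on chromosome 11 from 134421401 to 134591400, each over 7 KO intervals. KO intervals filled 63.4% of the one on chromosome 9 and 95.4% of the second one on chromosome 11.

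Neighbouring KO intervals lay much closer together than neighbouring WT intervals. The median gap to the next interval was 4.0 kb in KO (quartiles 1.2 and 22 kb) and 12.4 kb in WT (quartiles 3.4 and 48.2 kb). The smallest gap was 0.8 kb in both lists. Gaps of at most 1 kb made up 21.2% of KO gaps (20.9% to 21.6%) and 11.6% of WT gaps (11.3% to 11.9%). At 5 kb the shares were 54.8% in KO (54.3% to 55.2%) and 32.2% in WT (31.8% to 32.6%). The lists converged at long range, with 87.3% of KO gaps and 85.4% of WT gaps within 100 kb.

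Intervals were then joined into domains wherever the gap was at most 5 kb. By this measure KO had fewer and larger domains, 21869 against 30698 in WT, a ratio of 0.712. A domain held 2.21 intervals on average in KO and 1.47 in WT. Intervals in domains of at least 2, here called clustered, made up 67.9% of KO intervals (67.5% to 68.3%) and 47.6% of WT intervals (47.1% to 48.0%), a difference of 20.3 percentage points. With a joining gap of 20 kb this difference was 7.40 points and with 50 kb 1.19 points. Clustered intervals covered 232.3 Mb in KO and 146.7 Mb in WT, while isolated intervals, alone in their domain, covered 54.9 Mb in KO and 106.4 Mb in WT.

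KO had fewer of the small domains and more of the large ones. Domains of 2 to 3 intervals numbered 3825 in KO and 5548 in WT, those of 4 to 9 intervals 1767 in KO and 1241 in WT, and those of at least 10 intervals 772 in KO and 179 in WT. By span, the covered length in domains under 10 kb was 56.2 Mb in KO and 97.4 Mb in WT, and in those of 10 to 50 kb 64.9 Mb in KO and 90.2 Mb in WT. From 50 to 100 kb KO covered 36.1 Mb against 21.4 Mb in WT, from 100 to 500 kb 86.4 Mb against 38.0 Mb, and from 500 kb upwards 43.6 Mb against 6.10 Mb.

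**Figure D2:**
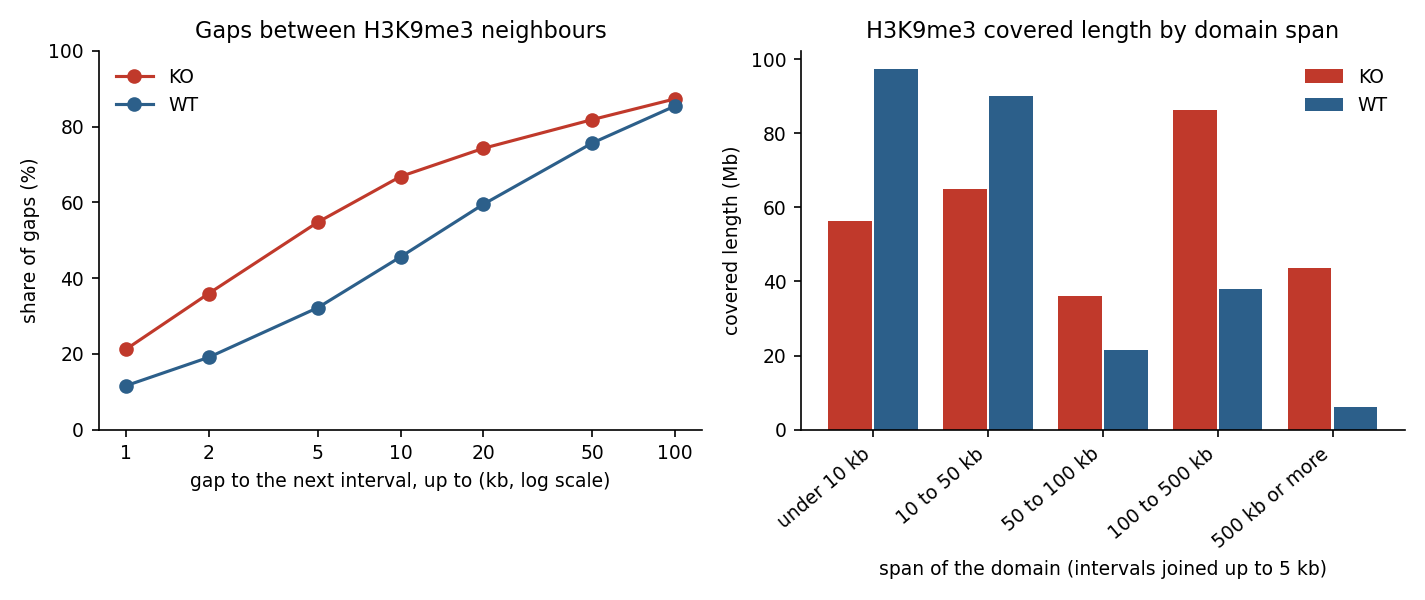
Left, cumulative share of gaps between neighbouring H3K9me3 intervals (%) up to the length on the log-scaled axis (kb). Right, covered length (Mb) by the span of the domain an interval belongs to, KO beside WT. The KO curve lies above the WT curve at every length counted in the text, and KO covers more than WT only in domains of at least 50 kb.

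Large domains, with a span of at least 100 kb, numbered 572 in KO and 241 in WT. They held 45.2% of the KO covered length (129.9 Mb) and 17.4% of the WT covered length (44.1 Mb), a difference of 27.8 percentage points. This difference was 13.1 points with a joining gap of 2 kb and 13.8 points with 50 kb. H3K9me3 filled 87.9% of their span in KO and 90.9% in WT. Domains of at least 500 kb numbered 63 in KO and 10 in WT, and 10 KO domains but 0 WT domains reached 1 Mb.

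Large domains of KO were present in WT as looser runs of intervals, while large domains of WT were mostly covered in KO too. Inside the spans of the 572 large KO domains, KO covered 129.9 Mb and WT 75.2 Mb, and the median share of a span covered by WT was 42.2% (quartiles 22.1% and 68.4%). WT covered under 10% in 74 of these spans and had no interval in 9. Inside the spans of the 241 large WT domains, KO covered 39.1 Mb and WT 44.1 Mb, and the median share covered by KO was 93.0% (quartiles 72.8% and 96.7%). KO covered under 10% in 14 of these and had no interval in 3. A large domain was chosen by its own list, which favours that list in both comparisons.

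In the large KO domains the number of intervals was close in the 2 genotypes, and width and spacing differed. These spans met 11186 KO intervals with a median width of 6.2 kb and a median gap of 1.2 kb, against 10000 WT intervals with a median width of 4.6 kb and a median gap of 3.0 kb. Of the WT intervals there 18.8% stood alone by the 5-kb rule. Large KO domains were joined from KO intervals at gaps of at most 5 kb, which limits the KO gaps but not the WT gaps. The differences in width, spacing and standing alone in these spans thus follow in part from the choice. The large WT domains met 1854 KO intervals with a median width of 10.2 kb and 2825 WT intervals with a median width of 9.4 kb, with a median gap of 1.2 kb in both.

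The 5 widest KO domains had this form (hg19). The widest, on chromosome 7 from 69670001 to 71813600, spanned 2143.6 kb and was covered to 97.3% by 39 KO intervals and to 57.0% by 189 WT intervals. The second, on chromosome 8 from 138831201 to 140220000, was covered to 93.9% by 49 KO intervals and to 78.3% by 104 WT intervals. The third lay on chromosome 16 from 5435001 to 6788800, with 64 KO intervals over 93.7% of the span and 153 WT intervals over 52.7%.

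The fourth, on chromosome 19 from 31479601 to 32762400, had 46 KO intervals over 94.2% and 71 WT intervals over 84.7%. The fifth was again on chromosome 7, from 66836801 to 68116800, with 24 KO intervals over 97.5% and 99 WT intervals over 44.0%. In all 5 the KO list had fewer and longer pieces than the WT list over the same span. These spans were chosen as the widest KO domains, which favours long KO pieces and high KO cover. H4K20me3 covered between 30.1% and 82.9% of these spans in KO and between 0% and 7.03% in WT, and neither genotype had an H3K36me3 interval in them.

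The widest WT domains were smaller and were largely covered in KO. The first, on chromosome 19 from 56871001 to 57702800, spanned 831.8 kb, and 20 KO intervals covered 97.1% of it against 93.9% covered by 37 WT intervals. The second, on chromosome 11 from 134140001 to 134946400, was the only one of the 5 with clearly less KO cover, 87.6% in 39 KO intervals against 97.6% in 12 WT intervals. The third, on chromosome 12 from 128395801 to 129156000, was covered to 97.6% by 15 KO intervals and to 88.4% by 51 WT intervals. The other 2, on chromosome 1 from 2687801 to 3364600 and on chromosome 19 from 21382401 to 22017200, had nearly equal cover in KO (96.5% and 89.9%) and WT (96.4% and 89.6%). Both chromosome 19 domains lie in regions known for zinc finger gene clusters.

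KO held fewer isolated intervals than WT. They numbered 15505 in KO and 23730 in WT, a ratio of 0.653. Among isolated intervals of at least 2 kb KO had 11403 and WT 20451, a ratio of 0.558. For those of 5 to 10 kb the ratio was 0.423 (2533 in KO and 5985 in WT).

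Small isolated intervals, under 2 kb wide and alone, went the other way. They numbered 4102 in KO and 3279 in WT, or 8.49% of KO intervals (8.24% to 8.74%) and 7.24% of WT intervals (7.01% to 7.49%). The difference of 1.25 percentage points turned to -10.4 points when intervals up to 5 kb were counted as small. Small clustered intervals differed more, with 5669 in KO and 2337 in WT, a ratio of 2.43. They had the same median width of 1.4 kb as the small isolated ones in both genotypes. The additional narrow intervals of KO were thus more often short pieces beside other intervals than lone ones. This is not particular to narrow intervals, as 67.9% of all KO intervals were clustered. Of KO intervals under 1 kb 59.7% were clustered, and of those of 1 to 2 kb 57.7%. In WT these shares were 46.7% and 41.1%, against 47.6% of all WT intervals.

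Whether an interval was found in the other genotype, by an overlap of at least 1 bp, went with clustering in opposite directions in the 2 lists. Over all intervals 57.5% of KO ones were found in WT and 68.6% of WT ones were found in KO. Of the isolated intervals 71.0% of KO ones (70.3% to 71.7%) were found in WT, and 60.6% of WT ones (60.01% to 61.3%) were found in KO. Among clustered intervals 51.2% of KO ones (50.6% to 51.7%) were found in WT and 77.3% of WT ones (76.8% to 77.9%) were found in KO. The clustered minus isolated difference was therefore -19.8 percentage points for KO and 16.7 points for WT.

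By domain size, the share of KO intervals found in WT was 54.0% in domains of 2 to 3 intervals, 45.1% in those of 4 to 9 and 53.8% in those of at least 10. The share of WT intervals found in KO was 71.2%, 83.2% and 91.7% in the same classes, higher in each larger class. Intervals of 1 width class showed the same pattern. At 2 to 5 kb, 73.5% of isolated and 40.7% of clustered KO intervals were found in WT, while 57.5% of isolated and 74.6% of clustered WT intervals were found in KO. At 5 to 10 kb the KO shares were 85.1% isolated and 62.6% clustered, and the WT shares 68.5% isolated and 77.7% clustered.

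**Figure D3:**
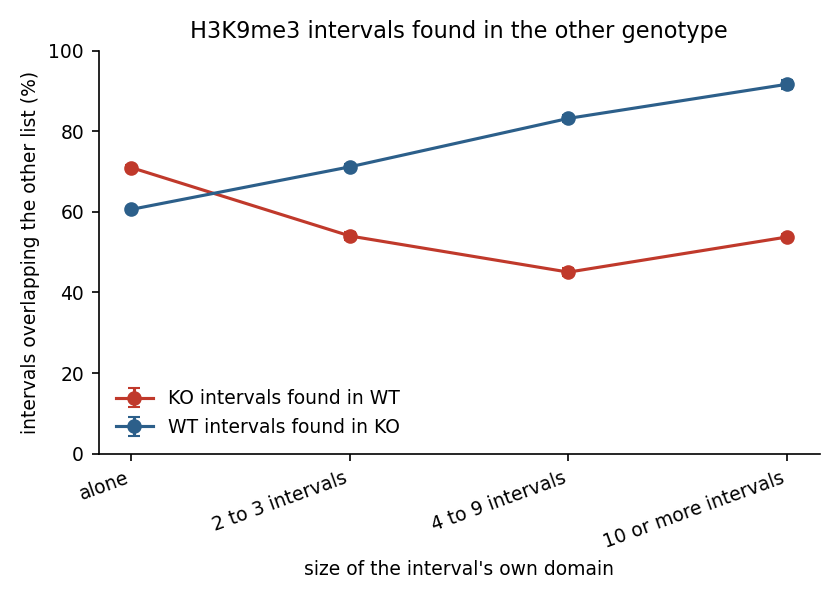
Share of H3K9me3 intervals that overlap an interval of the other genotype by at least 1 bp (%), by the number of intervals in their own domain. Bars (mostly within the points) are 95% Wilson intervals for counting error. KO intervals were found in WT most often when alone, at 71.0%, and WT intervals in KO most often in domains of at least 10 intervals, at 91.7%.

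The length not found in the other list was distributed accordingly. KO had 132.7 Mb that WT lacked, and 87.7% of it lay in clustered KO intervals, 64.5 Mb of it in domains of at least 10 intervals. WT had 98.7 Mb that KO lacked, and 55.9% of it lay in isolated WT intervals. Among the width classes, the narrowest differed most between the genotypes in how often it was found. Under 1 kb, 29.0% of KO intervals (26.8% to 31.3%) and 62.5% of WT intervals (58.4% to 66.5%) had a partner. Small clustered KO intervals were found in WT in only 27.2% of cases, against 54.6% of small isolated KO intervals. For WT the shares found in KO were 73.0% of small clustered and 51.7% of small isolated intervals.

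Partners were not always of the same kind. Isolated KO intervals met a clustered WT interval in 13.8% of cases (13.2% to 14.3%), an isolated one in 57.2% and no WT domain in 29.0%. Isolated WT intervals met a clustered KO interval in 23.4% of cases (22.8% to 23.9%), an isolated one in 37.3% and no KO domain in 39.3%. Clustered KO intervals met an isolated WT interval in 17.8% of cases, and clustered WT intervals met an isolated KO interval in 10.6%.

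Along the genome the mark was more concentrated in KO than in WT. In 1-Mb bins holding at least 20 kb of H3K9me3 in KO and WT together, with 1 kb added to each, 286 of 2426 bins were at least 2-fold higher in KO (11.8%) and 1134 were at least 2-fold lower (46.7%), together 58.5%. By the same rule 48.1% of H4K20me3 bins were higher and 19.2% lower (67.3% together), 3.26% and 5.1% of H3K36me3 bins (8.36%), 0.0534% and 1.39% of H3K4me3 bins (1.44%), and 2.16% and 73.1% of MINA bins (75.3%). The median H3K9me3 bin had 0.539 times as much in KO as in WT, although the total was larger in KO. The 286 higher bins held 107.7 Mb in KO and 28.7 Mb in WT. The 1134 lower bins held 22.6 Mb in KO and 82.9 Mb in WT. Bins with at least 500 kb of H3K9me3 numbered 222 in KO and 84 in WT.

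Concentration was also visible without any fold threshold. The richest 10% of all 2892 bins, chosen in each list, held 64.3% of the covered length in KO and 49.8% in WT. It took 201 bins in KO and 292 bins in WT to hold 50% of the covered length. For the other antibodies the share in the richest 10% was 58.01% in KO and 56.4% in WT for H4K20me3, 36.96% in KO and 35.97% in WT for H3K36me3, 44.7% in both for H3K4me3, and 69.5% in KO and 68.5% in WT for MINA. H3K9me3 had the largest difference of the 5, and no spread between replicates is available to set it against.

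The ratio differed between poor and rich bins, by an amount that depended on the sort. Sorted by the mean of KO and WT, which includes the KO value itself, the median KO over WT ratio was 0.450 in bins under 25 kb, 0.438 from 25 to 50 kb and 0.446 from 50 to 100 kb. It was 0.881 from 100 to 200 kb, 2.28 from 200 to 400 kb and 1.56 above 400 kb, where 52 of 207 bins were higher and 3 lower. Sorted by the WT level, which favours the opposite direction, it was 0.445 from 25 to 50 kb, 0.621 from 100 to 200 kb, 1.25 from 200 to 400 kb and 1.08 above 400 kb, where 1 of 135 bins was higher and 14 were lower. In the 189 bins with a mean of 200 to 400 kb the median cover was 400.2 kb in KO and 169.0 kb in WT, while in the 403 bins of 50 to 100 kb it was 39.0 kb in KO and 87.0 kb in WT. Among bins of at least 100 kb in KO and WT together, a second minimum chosen after the data were seen, 246 were higher and 319 lower.

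The higher and the lower bins differed in what else they carried, which was not used to choose them. In the higher bins H3K36me3, which marks the bodies of transcribed genes, had a mean of 27.4 kb per bin in KO and 25.5 kb in WT with a median of 0 kb in both, against means of 113.4 kb in KO and 124.5 kb in WT in the lower bins. H3K4me3, the mark of active promoters, averaged 7.43 kb in KO and 8.38 kb in WT in the higher bins, against 31.8 kb in KO and 39.6 kb in WT in the lower bins. Bins with more H3K9me3 in KO thus held less of either active mark than the lower bins in both genotypes. H4K20me3 averaged 60.1 kb in KO and 2.09 kb in WT in the higher bins, and 25.9 kb in KO and 31.5 kb in WT in the lower bins. The 1006 bins between them held more KO H4K20me3 than either, with a mean of 96.8 kb in KO and 29.0 kb in WT.

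The bins were chosen by covered length, so the number, clustering and overlap of the intervals inside them follow in part from the choice and are given as a description. The higher bins held 20258 KO and 7863 WT intervals, and the lower bins 6761 KO and 15725 WT intervals. Higher bins often lay side by side, with 58.4% of them in runs of at least 3 bins and the longest run of 13 Mb on chromosome 21 from 14000001 to 27000000, where KO covered 5.04 Mb and WT 1.496 Mb. Of the lower bins 70.7% lay in such runs, and the longest covered 24 Mb of chromosome 8 with 0.269 Mb in KO and 1.01 Mb in WT.

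**Figure D4:**
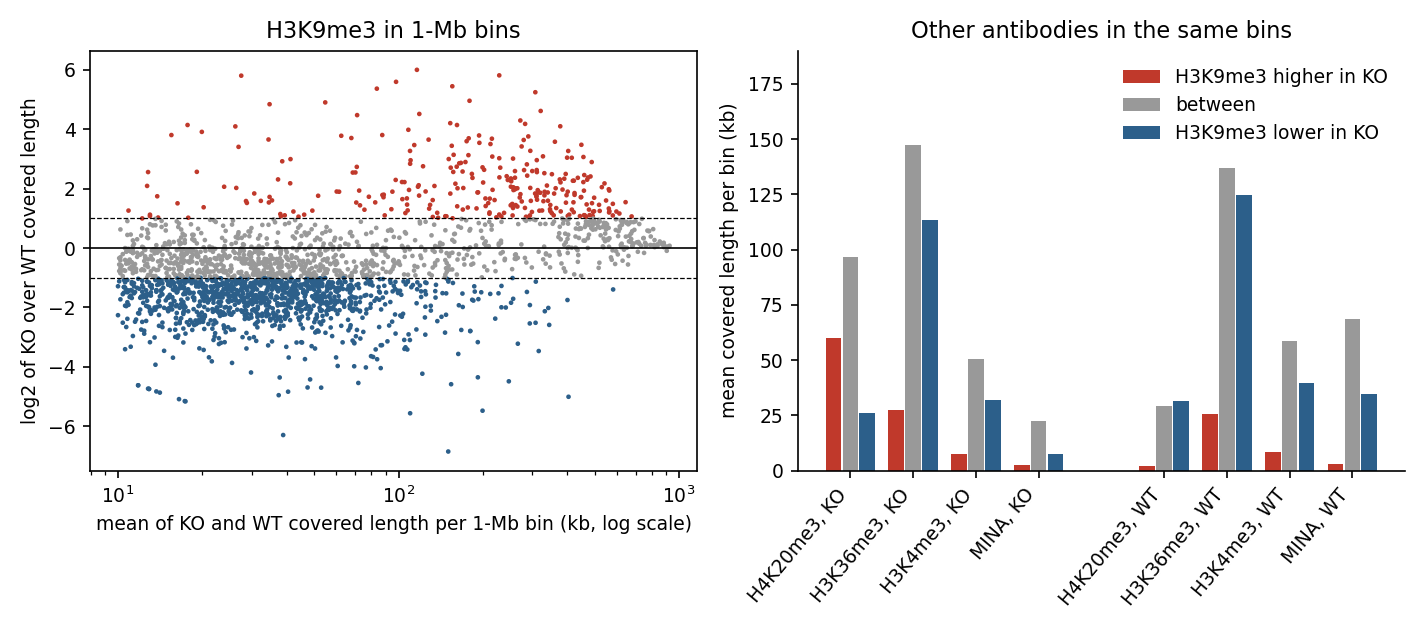
Left, log2 of the KO over WT covered length of H3K9me3 against the mean of both (kb, log scale) in 2426 bins of 1 Mb, with dashed lines at 2-fold. Right, mean covered length of the other 4 antibodies per bin (kb) in bins where H3K9me3 was higher in KO, between or lower in KO, the KO lists left and the WT lists right. The mean on the horizontal axis includes the KO value, and the higher bins carry little H3K36me3, H3K4me3 or MINA.

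Chromosomes differed in the total, while the share in large domains was higher in KO on each of them. The length ratio ran from 0.554 on chromosome 12 to 2.30 on chromosome 18 and exceeded 1 on 16 of the 22 autosomes. The share of the covered length in large domains was higher in KO on all 22 autosomes, by 3.76 percentage points on chromosome 13 up to 52.4 points on chromosome 15. Isolated intervals were fewer in KO on all 22, with ratios from 0.455 to 0.989. The share of clustered intervals was higher in KO on 19 of 22. The exceptions were chromosome 12 with 32.2% in KO and 42.0% in WT, chromosome 19 with 69.5% in KO and 73.7% in WT, and chromosome 22 with 55.2% in KO and 58.3% in WT.

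The number of domains was lower in KO on 20 of the 22 autosomes, and on 10 of these 20 the number of intervals was higher. The lowest ratios of domain number were 0.570 on chromosome 14 (831 in KO and 1458 in WT), 0.573 on chromosome 10 (1112 in KO and 1939 in WT) and 0.593 on chromosome 12 (850 in KO and 1434 in WT). On chromosome 14 the covered length was nevertheless 21.7 Mb in KO and 12.4 Mb in WT, of which large domains held 13.6 Mb in KO and 1.74 Mb in WT. The excess in KO lay in 1 stretch from 1 to 62000000, where the H3K4me3 list also had a raised KO over WT ratio, with 12.9 Mb in KO and 3.92 Mb in WT. The rest of chromosome 14 had 8.73 Mb in KO and 8.52 Mb in WT. The highest ratios were 1.12 on chromosome 18, 1.05 on chromosome 21 and 0.983 on chromosome 9. Chromosomes 18 and 21 had about as many domains in both genotypes but many more KO intervals, 1598 against 834 in WT on chromosome 18 and 2052 against 930 in WT on chromosome 21. On chromosome 18 WT had no large domain at all, and large domains held 1.63 Mb in KO.

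**Figure D5:**
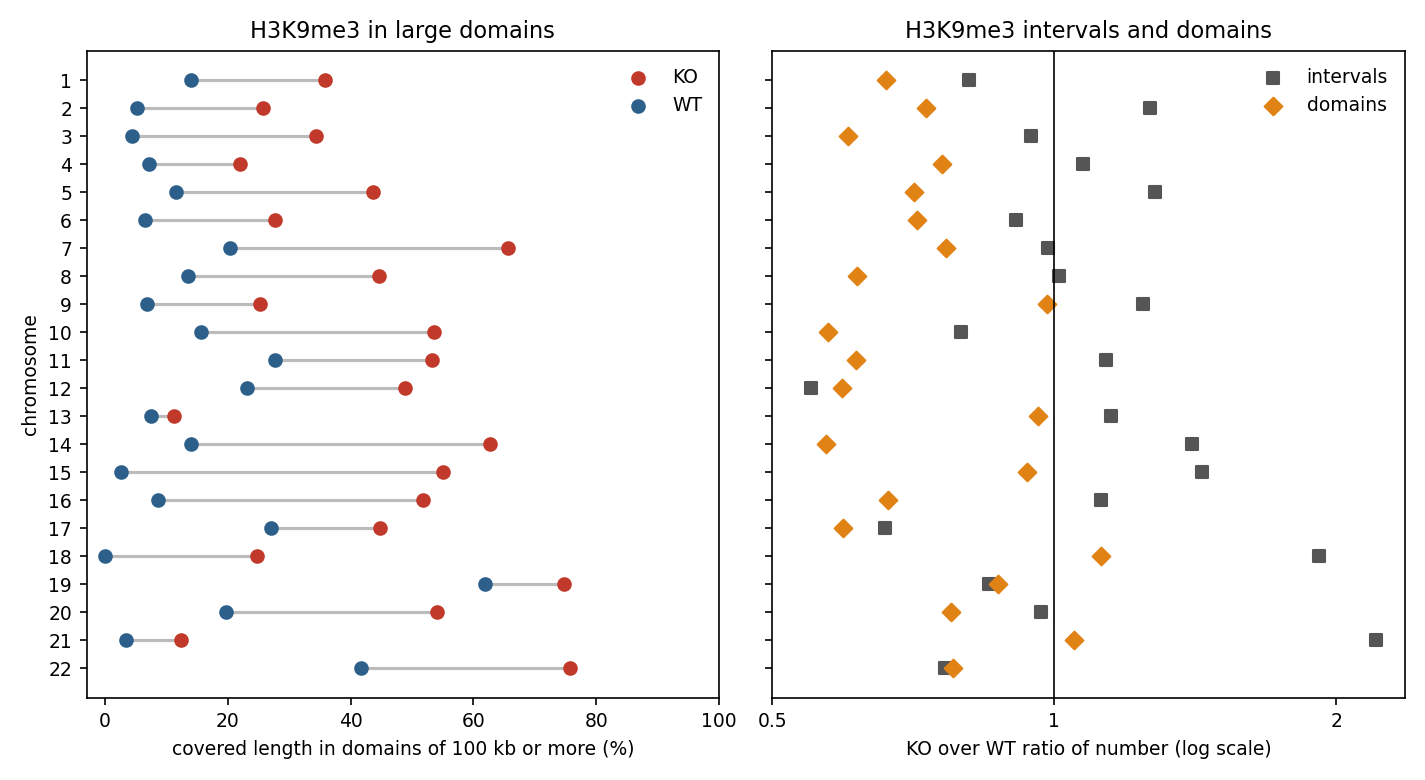
Left, share of the H3K9me3 covered length in domains of at least 100 kb (%) on each autosome, KO and WT joined by a line. Right, KO over WT ratio of the number of intervals (squares) and of domains (diamonds) on a log-scaled axis. The KO point lies right of the WT point on all 22 autosomes, and the diamonds lie left of 1 on 20 of them.

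Chromosome 19, with the densest zinc finger gene clusters of the genome, already had most of its H3K9me3 in large domains in WT. It had the highest share of WT length in them, 61.8%, against 74.8% in KO, and widths were large in both genotypes (median 6.0 kb in KO and 7.2 kb in WT). In the 19p12 clusters, taken as 20 to 24 Mb, 253 KO and 290 WT intervals covered 3.31 Mb in KO and 3.12 Mb in WT, and 99.2% of KO and 97.9% of WT intervals were clustered. In the distal 19q clusters, taken as 52 to 58 Mb, the cover was 2.50 Mb in KO and 3.04 Mb in WT. There 88.1% of KO intervals but 69.9% of WT intervals were found in the other list. In the 19p12 clusters the order was the other way, with 94.1% of KO and 97.9% of WT intervals found. The rest of chromosome 19 had 85.8% of KO and 78.7% of WT intervals found. No 1-Mb bin of chromosome 19 was at least 2-fold higher in KO and 11 of its 57 bins were at least 2-fold lower, beside 11.8% and 46.7% over all autosomes.

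In both genotypes H4K20me3 lay most often on the H3K9me3 of the widest domains. It covered 55.3% of the KO H3K9me3 length in KO domains of at least 500 kb, 30.7% in those of 100 to 500 kb and 19.4% in those of 50 to 100 kb. It lay on 34.6% of the length of isolated KO intervals. In WT it lay on 31.8% of the WT H3K9me3 length in the 10 domains of at least 500 kb, 15.5% in those of 100 to 500 kb and 15.3% in isolated intervals. The autosomal H4K20me3 list itself was 2.20 times as long in KO as in WT, which moves with every such share. Large WT domains bore H4K20me3 on 64.7% of their H3K9me3 length in KO, against 17.7% in WT.

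H4K20me3 also differed between intervals with and without a partner. Clustered KO intervals with a WT partner had H4K20me3 on 39.1% of their length in KO, and clustered KO intervals without one on 5.39%. Among isolated KO intervals the shares were 39.6% with and 16.1% without a partner. Over the autosomal span H4K20me3 covered 5.11% in KO and 2.33% in WT. The 16795 clustered KO intervals with a partner covered 170.3 Mb and the 16017 without one 62.0 Mb, so those with a partner were wider. The KO H4K20me3 share also rose with KO interval width, from 7.16% of the length under 1 kb to 72.5% at 50 kb or more. Width and partner were not separated. WT intervals without a KO partner had WT H4K20me3 on 10.7% of their length, and those with a partner on 14.6%. The clustered KO intervals without a partner covered 62.0 Mb of the 116.4 Mb of clustered KO length that WT lacked. The rest of that length lay in intervals with a partner and was not looked at separately.

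The active marks, and also the MINA intervals, covered a larger share of the length of isolated than of clustered intervals in both genotypes. In KO the shared length itself was about even, with 3.90 Mb of H3K36me3 on isolated and 3.98 Mb on clustered intervals. H3K36me3 of the same genotype covered 7.11% of isolated and 1.71% of clustered KO length, and 3.94% of isolated and 2.17% of clustered WT length. H3K4me3 covered 1.99% of isolated and 0.507% of clustered KO length, and 1.18% of isolated and 0.847% of clustered WT length. MINA covered 1.35% of isolated and 0.179% of clustered KO length, and 3.03% of isolated and 1.17% of clustered WT length. Over the autosomal span H3K36me3 covered 11.2% in both genotypes and H3K4me3 3.46% in KO and 4.10% in WT. MINA covered 1.23% of the span in KO and 4.12% in WT. Of the isolated and clustered shares, only that of MINA on isolated KO intervals lay above its share of the span, and only slightly. Clustered H3K9me3 without a partner in WT bore H3K36me3 on 0.315%, H3K4me3 on 0.236% and MINA on 0.0913% of its length in KO. WT MINA covered 0.337% of that same length, against 1.57% of all KO H3K9me3 length and 4.12% of the autosomal span.

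The other antibodies are set beside H3K9me3 with their own ratios. The ratios of interval number and domain number were 1.07 and 0.712 for H3K9me3, 2.89 and 2.68 for H4K20me3, 1.02 and 1.01 for H3K36me3, 0.928 and 0.935 for H3K4me3, and 0.477 and 0.581 for MINA. The number ratio of H3K9me3 lay above 1 only with the narrow intervals included, as it was 0.972 for intervals of at least 2 kb. At equal covered length it was 0.653, but there only KO was trimmed. KO kept 29556 intervals of at least 2.8 kb and WT all 45262, which by itself lowers the ratio. The difference in the clustered share was 20.3 percentage points for H3K9me3, 5.79 for H4K20me3, 0.349 for H3K36me3, -1.20 for H3K4me3 and -23.6 for MINA. With 1 library per list these differences between antibodies were not tested.

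Stretches of chromosomes in which H3K4me3 had a raised KO over WT ratio were also set apart. They comprised 11 stretches on 7 autosomes and 617.4 Mb, 21.4% of the span. Among them were all of chromosome 15 and the first 92 Mb of chromosome 7, which holds the named KO domains and intervals of that chromosome. Inside them H3K9me3 covered 57.4 Mb in KO and 33.9 Mb in WT, a ratio of 1.70, and outside them 229.7 Mb in KO and 219.2 Mb in WT, a ratio of 1.05. The single stretches did not agree on the length ratio. It ran from 0.537 in a stretch of chromosome 6 to 3.30 on chromosome 14. In the largest stretch, on chromosome 4, it was 0.738. The domain number ratio was 0.867 inside and 0.684 outside. The share of the length in large domains was 55.9% in KO and 12.98% in WT inside, and 42.6% in KO and 18.1% in WT outside. The domain measures therefore differed between the genotypes inside and outside, whereas the length ratio outside was close to 1. The part of read depth or of the efficiency of the precipitation in any of these differences was not tested.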

How the data were processed

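ChIP-seq intervals of 10 libraries were deposited by the authors as positions, a start and an end in bp on hg19 (the only other values used here are the chromosome names). The submitters' processing notes name BWA and SICER version 1.1. SICER's settings, the sequencing depth and whether the input entered the calls: none is given in the sources used. Starts and ends lie on a 200-bp grid, and coordinates are printed 1-based. The input sample was not used.

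With Python 3.11.15 and numpy 2.4.6, intervals of chromosomes 1 to 22 were joined into domains at gaps of at most 5 kb. Counts of intervals, domains and found intervals from bedtools 2.31.1 were identical. Small means under 2 kb, wide at least 20 kb and a large domain at least 100 kb of span. Named regions were the 5 widest domains per genotype, the 3 intervals over the most intervals of the other list, and the 3 autosomes with the highest and lowest domain ratio, plus chromosome 19. The stretches of raised H3K4me3 ratio came from a 2-state hidden Markov model on 2-Mb bins (chance of a change of state 0.001, bins with under 20 kb in KO and WT together uninformative). The code was tested on simulated data. Members, lists and settings were chosen with earlier results of these data known. An hg19 annotation was not used here, so no gene was assigned and no sequence is shown. No test was run, as there was 1 library per genotype. Alternatives are listed in the closing section.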

Additional observations from a re-analysis of the deposited data

How the results depend on the processing

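No paired analysis was possible because each genotype had 1 H3K9me3 library. Of the 84 alternative values computed for 11 results, 81 kept the direction given in the report. The 81 include the counts of higher and of lower bins, with 5 alternatives each. A count of bins has no direction that could reverse, so these say nothing about direction. The KO over WT ratio of interval number turned to 0.972 without intervals under 2 kb and to 0.653 when the KO list was shortened to the WT covered length by leaving out its narrowest intervals. That shortening sets the length ratio and leaves no small KO interval, so neither is given for it. It also lowers the number ratio by itself, as intervals were left out of KO only. With intervals of at least 2 kb the small isolated difference has no value. The small isolated difference turned to -10.4 percentage points with small meaning under 5 kb, and was 0.6996 points under 1 kb and 2.51 with a 2-kb joining gap. The domain number ratio stayed between 0.510 and 0.845. With chromosome X added, the number ratio was 1.17, the length ratio 1.20 and the domain number ratio 0.771. Chromosome X alone differed from the autosomes, with 2164 domains in KO against 486 in WT. It also had more isolated intervals in KO, 1158 against 444 in WT. The clustered share difference was 21.6 points with chromosome X, 21.1 without chromosome 19, 15.8 at equal covered length, and 21.0, 14.2, 7.40 and 1.19 with joining gaps of 2, 10, 20 and 50 kb. For intervals of at least 50 kb the wide length difference was 6.91 points. The large domain difference was 13.1 points with a joining gap of 2 kb and 13.8 with 50 kb. The clustered minus isolated difference in the share found in WT, for KO intervals, was -20.8 points with chromosome X, -17.6 for intervals of at least 2 kb, -11.3 at equal covered length, -18.8 outside the raised stretches, -11.5, -24.5, -25.8 and -25.8 with joining gaps of 2, 10, 20 and 50 kb, and -29.4 when 50% of the interval had to be covered. For WT intervals it was 19.4 points for intervals of at least 2 kb, 27.3 at equal covered length, 18.7 outside the stretches, 15.3, 17.7 and 18.1 with gaps of 2, 10 and 20 kb, and 19.5 with 50% covered. With bins of 5 Mb, 82 of 564 were higher and 229 lower in KO, and with at least 100 kb per 1-Mb bin 319 of 1013 were lower. The bin alternatives were chosen after seeing the data. The cause of these shifts was not tested. Depth is unknown, so how far it limits these values cannot be given.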
